A study of Mus musculus with 10 samples.

Results

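Fluid in the lumen of the uterus is set by the salt that its epithelium moves. Genes for 10 proteins of this transport were examined in whole mouse uterus: the anion channel gene Cftr, the 3 subunit genes of the epithelial sodium channel ENaC (Scnn1a, Scnn1b and Scnn1g), the anion exchanger genes Slc26a3, Slc26a4 and Slc26a6, the sodium-proton exchanger gene Slc9a3, the calcium-gated chloride channel gene Ano1 and the carbonic anhydrase gene Car2. They were chosen by name for their role, with earlier results of these data known. The table of 29268 genes held 9 of the 10, and Slc26a3 was not analysed here. RNA was sequenced from 10 uteri of mice aged 4 months, 5 from transgenic and 5 from wild-type mice. The transgenic mice (HSD17B1TG) carried a human HSD17B1 cDNA, expressed in all tissues from the chicken beta-actin promoter with a CMV enhancer, on the FVB/N background and as heterozygotes. HSD17B1 is the enzyme that turns estrone into the stronger estrogen estradiol. The wild-type (WT) controls shared the FVB/N background without the transgene. The transgenic females did not cycle, and the study's histology took WT uteri at random phases of the cycle. Cycle phase therefore could differ among the WT mice and cannot be told apart from genotype. The deposited table counts mouse genes, so the human transgene itself could not be read from it. Mice are called TG1 to TG5 and WT1 to WT5, numbered in the order of the sample records.

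Chloride and bicarbonate that leave the epithelium draw sodium and water into the lumen, and sodium that enters through ENaC takes water back out. CFTR is opened by cyclic AMP and ANO1 (TMEM16A) by calcium. Estrogen is known to favour fluid accumulation in the rodent uterus and progesterone to favour its absorption. Carbonic anhydrases supply the bicarbonate and protons that the exchangers carry.

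Total counts per mouse ran from 16544864 to 19451715 in the HSD17B1TG group and from 14817228 to 23271988 in the WT group. Levels are given as the deposited FPKM, fragments scaled by gene length and by the mapped fragments of the library, so that genes of unequal length can be set side by side. Group values are means ± SD over 5 mice. Differences come from edgeR's quasi-likelihood test on the deposited counts over 16993 genes, with Benjamini-Hochberg adjusted p-values. A gene was called where the adjusted p was under 0.05, the fold change over 2 and the mean FPKM over 1 in either group. Of all genes tested, 2.16% were called higher in HSD17B1TG uteri, 2.08% were called lower, and in 6.69% the values of the groups did not overlap. Epithelium markers were summed per mouse, since most of the transport genes are epithelial. All 10 of them were higher in HSD17B1TG uteri, 7 of the 10 at an unadjusted p under 0.05 and 0 called by edgeR. Their summed FPKM was 750.0, 2463, 2706, 2063 and 3497 in TG1 to TG5 and 1121, 841, 627, 1817 and 523 in WT1 to WT5.

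Ano1 fell in the HSD17B1TG uteri, and it was the only one of the 7 tested members that was called. The other members that could be tested went in both directions without a call: Cftr, Slc26a4 and Car2 had higher fitted levels in the transgenic group, and Scnn1a, Scnn1b and Slc26a6 had lower ones. Of the 7 tested members 0 were called higher by edgeR, and 3 of the 7 had an unadjusted p under 0.05, against 26.1% of all genes tested. The median log2 fold change was -0.14 over the members and 0.0021 over all genes. The values of the groups overlapped in all 7 tested members. Scnn1g and Slc9a3 had too few counts to be tested.

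**Figure D1:**
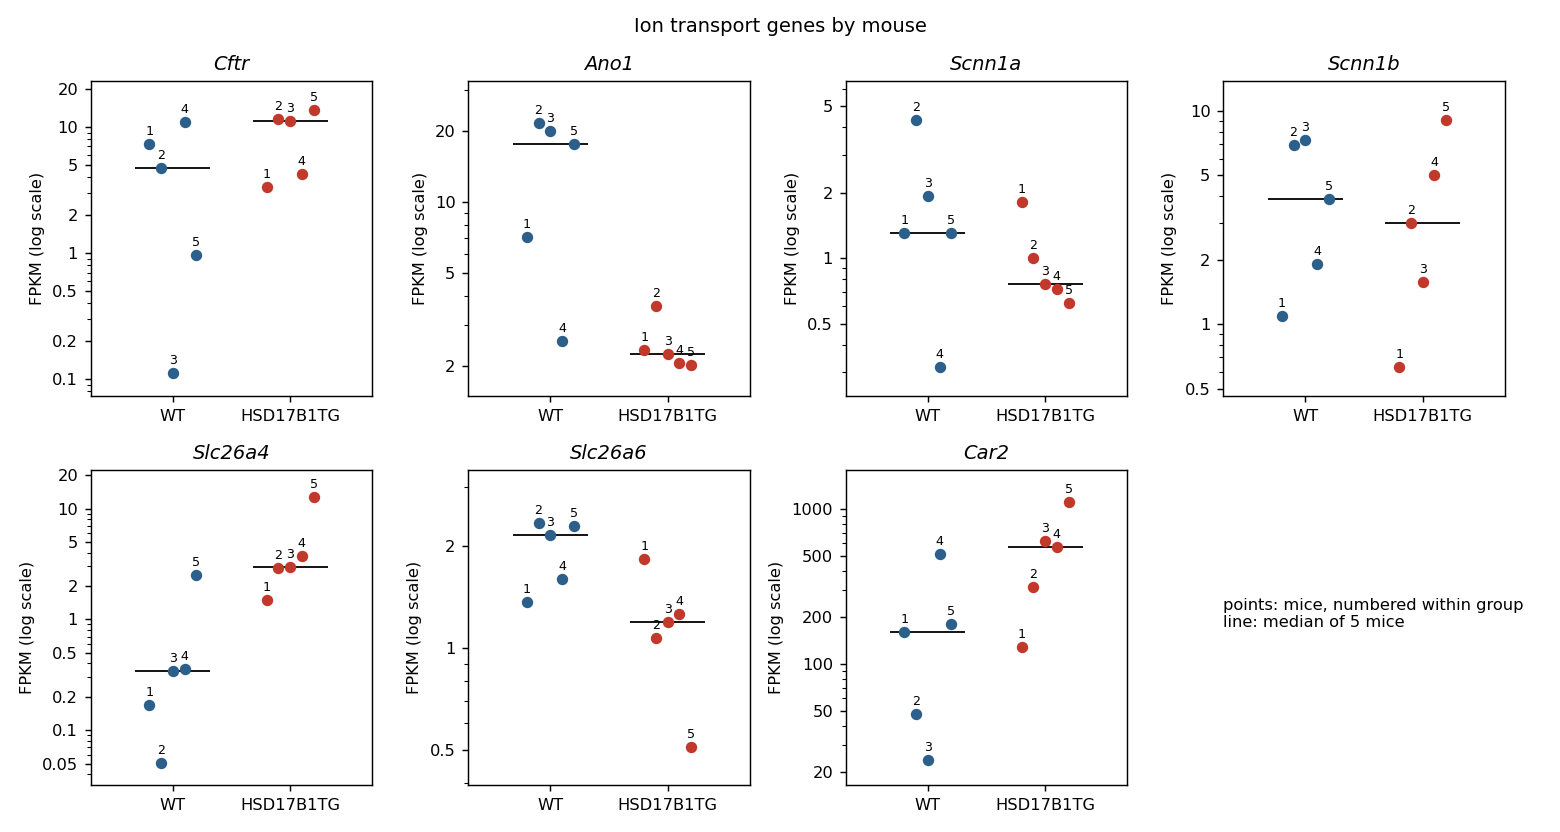
FPKM (log scale) of the 7 tested genes in each of the 10 mice, WT in blue and HSD17B1TG in red, numbered within the group, with the median as a line. Ano1 lies between 2.02 and 3.60 in the HSD17B1TG mice and at or above 7.09 in every WT mouse but WT4, whereas Cftr in the WT mice spreads from 0.112 to 10.97.

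Ano1 (ENSMUSG00000031075, GRCm38 chr7:144588549-144751974, minus strand) encodes a chloride channel that opens on a rise of calcium, in epithelia and also in smooth muscle and interstitial cells. Its level was 7.09 FPKM in WT1, 21.8 in WT2, 20.1 in WT3, 2.56 in WT4 and 17.6 in WT5. In the transgenic mice it was 2.35, 3.60, 2.25, 2.06 and 2.02 FPKM in TG1 to TG5. The HSD17B1TG values kept close together, and 4 of the 5 lay below all WT values; the groups overlapped through WT4, which was below TG2. The mean was 2.45 ± 0.655 FPKM in HSD17B1TG against 13.8 ± 8.50 in WT. Fitted by edgeR, this was 5.67-fold lower (log2 fold change -2.50, SE 0.51, adjusted p = 0.0260). The call was lost in 6 of the 10 fits that left out a mouse, those without TG2, TG4, TG5, WT2, WT3 or WT5, while the log2 fold change stayed between -2.77 and -2.30. With the mean of the epithelium markers as a covariate the log2 fold change was -1.41 (unadjusted p = 0.0678, adjusted p = 0.464), and the call was lost. That fit called 0 of all 16993 genes, so the loss of the call is not particular to Ano1. In bulk uterus, fewer cells that express a gene and less RNA of it per cell cannot be told apart. Smooth muscle markers, summed over 8 genes, ran from 867 to 7350 FPKM in HSD17B1TG and from 407 to 5776 in WT; TG1 and WT4 had the highest sums of their groups, and TG5 and WT3 the lowest. Ano1 was 2.35 FPKM in TG1 and 2.02 in TG5, and 2.56 in WT4 and 20.1 in WT3. Markers of glandular epithelium, summed over 4 genes, were 0.838, 2.79, 3.63, 4.60 and 5.94 FPKM in TG1 to TG5, and 5.33, 22.7, 44.5, 1.94 and 42.7 in WT1 to WT5. The 3 WT mice with the highest Ano1, WT2, WT3 and WT5, also had the highest glandular sums, and WT4 had the lowest of both in WT. The HSD17B1TG mice did not follow this order. TG5 had their highest glandular sum and lowest Ano1, and TG1 had their lowest sum with 2.35 FPKM of Ano1. At glandular sums of 5.33 in WT1 and 5.94 in TG5, Ano1 was 7.09 and 2.02 FPKM. The part of glands and muscle in the Ano1 difference was not tested. A small gene model on the other strand, Gm44930, overlaps Ano1, and the sources used here do not state whether reads were counted by strand.

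The promoters of Ano1, the member that was called, and of Cftr, the member with the widest spread in WT, are shown from 250 bases before to 50 bases after the RefSeq start (GRCm38.p6). For Ano1 this is chr7:144738524-144738823 on the minus strand, and for Cftr chr6:18170437-18170736 on the plus strand. The Ano1 start lies inside the longer Ensembl gene model. Capitals mark matches to any of 5 motifs searched on both strands: the estrogen response half-site GGTCA, the full element GGTCANNNTGACC, the glucocorticoid-type half-site GAACA, the AP-1 site TGANTCA and the GC box GGGCGG.
Ano1: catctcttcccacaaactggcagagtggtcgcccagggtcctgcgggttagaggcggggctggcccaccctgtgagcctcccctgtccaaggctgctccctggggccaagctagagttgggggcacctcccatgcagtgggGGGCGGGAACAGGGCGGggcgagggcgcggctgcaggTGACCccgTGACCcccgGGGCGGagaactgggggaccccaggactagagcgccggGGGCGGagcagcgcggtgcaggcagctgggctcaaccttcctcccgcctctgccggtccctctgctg
Cftr: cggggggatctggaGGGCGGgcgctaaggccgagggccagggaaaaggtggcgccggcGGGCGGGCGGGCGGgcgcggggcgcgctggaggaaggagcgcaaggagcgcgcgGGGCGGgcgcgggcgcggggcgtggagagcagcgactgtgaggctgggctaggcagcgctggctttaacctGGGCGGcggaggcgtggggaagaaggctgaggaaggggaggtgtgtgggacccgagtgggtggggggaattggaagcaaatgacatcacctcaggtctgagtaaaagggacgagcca
The Ano1 window held 2 estrogen half-sites, read on this strand as TGACC, with first bases at -72 and -64, and 0 full elements. It also held 1 glucocorticoid-type half-site and 4 GC boxes. The Cftr window held 6 GC boxes, of which the 3 in a row overlap, and 0 matches to the other motifs. Both windows were rich in G and C, at 71.7% for Ano1 and 71.3% for Cftr. Of 32851 mouse promoter windows of the same length, 40.5% held an estrogen half-site, 0.0700% a full element, 41.7% a glucocorticoid-type half-site, 7.81% an AP-1 site and 35.7% a GC box. A match describes the letters of the window and is not evidence of binding.

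Cftr (ENSMUSG00000041301, chr6:18170687-18322768, plus strand) encodes the cyclic AMP-gated channel for chloride and bicarbonate that is mutated in cystic fibrosis. In the transgenic mice its level was 3.33, 11.7, 11.1, 4.23 and 13.6 FPKM in TG1 to TG5. In WT it was 7.29, 4.75, 0.112, 10.97 and 0.962 FPKM in WT1 to WT5. The 3 highest values of all were HSD17B1TG mice, and the 2 lowest were WT3 and WT5. The mean was 8.79 ± 4.68 FPKM in HSD17B1TG and 4.82 ± 4.50 in WT. The log2 fold change of 0.87 (SE 0.85, edgeR adjusted p = 0.558) did not pass the test, nor did that of 1.65 by limma voom. The spread within WT was itself large: the highest WT mouse had 98.2 times the level of the lowest, against 4.09 times among the HSD17B1TG mice. On the log2 CPM scale the SD of Cftr in WT was 2.67, above that of 99.7% of the genes tested. WT3 and WT5 also had the lowest sums of epithelium markers in WT, and WT4, with the highest Cftr, had the highest sum. With those markers as a covariate the fitted log2 difference of Cftr turned from 0.87 to -0.61 (unadjusted p = 0.306). Gm15595 on the same strand and Gm15592 on the other overlap the gene.

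**Figure D2:**
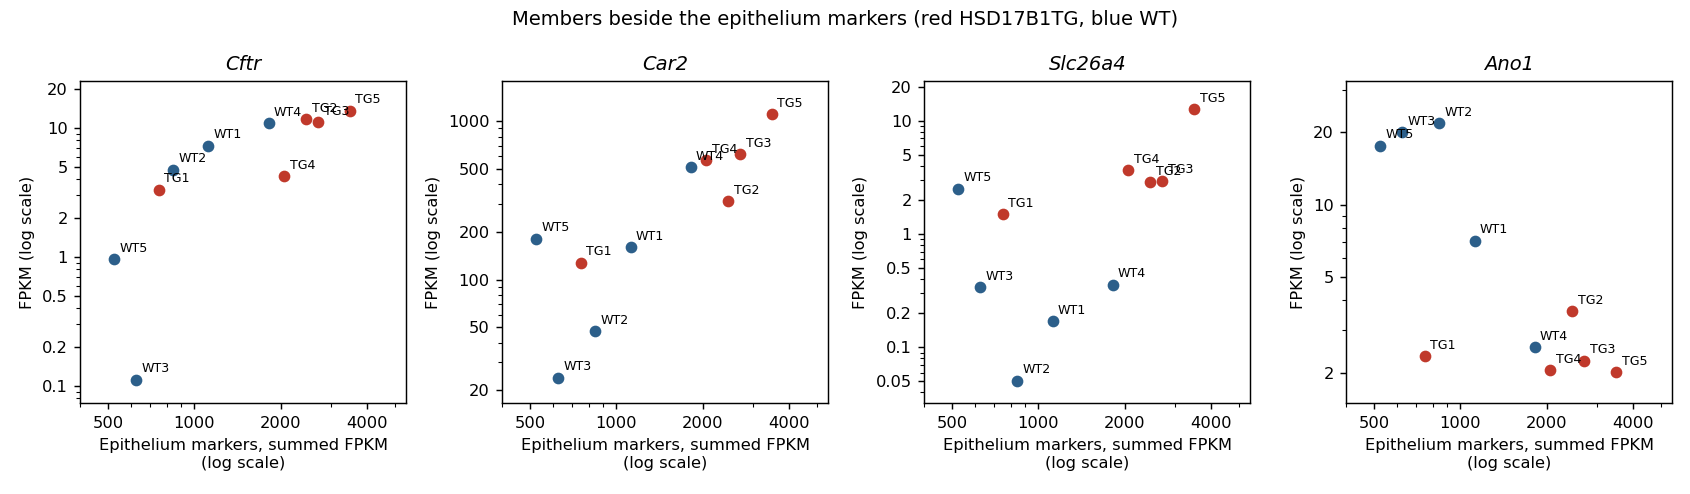
FPKM of Cftr, Car2, Slc26a4 and Ano1 (log scale) in each mouse against the summed FPKM of 10 epithelium markers (log scale), HSD17B1TG in red and WT in blue. WT4, with a marker sum of 1817, lies near the transgenic mice for Cftr, Car2 and Ano1, but not for Slc26a4, where it had 0.358 FPKM.

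The ENaC subunits that could be tested, Scnn1a and Scnn1b, did not pass the test. Scnn1a, the alpha subunit that the channel needs to conduct, was lower on average in HSD17B1TG, Scnn1b, the beta subunit, had group means close together, and Scnn1g, the gamma subunit, was close to undetected in both groups. Scnn1a (ENSMUSG00000030340, chr6:125320659-125344943, plus strand) measured 1.80, 1.00, 0.759, 0.720 and 0.622 FPKM in TG1 to TG5, and 1.31, 4.31, 1.94, 0.316 and 1.30 in WT1 to WT5. The HSD17B1TG values lay inside the WT range, since WT4 was the lowest of all mice and WT2 the highest. The means were 0.982 ± 0.481 FPKM in HSD17B1TG and 1.83 ± 1.50 in WT (log2 fold change -0.91, SE 0.58, edgeR adjusted p = 0.347). With the epithelium markers as a covariate the log2 difference was -0.056.

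Scnn1b (ENSMUSG00000030873, chr7:121865038-121918514, plus strand) measured 0.632, 2.99, 1.57, 5.04 and 9.10 FPKM in TG1 to TG5, and 1.10, 6.92, 7.32, 1.93 and 3.89 in WT1 to WT5. Both groups spread widely, and both the lowest and the highest mouse were transgenic. The means were 3.87 ± 3.36 FPKM in HSD17B1TG and 4.23 ± 2.83 in WT (log2 fold change -0.14, SE 0.70, edgeR adjusted p = 0.923). The sign of this difference changed in 4 of the fits that left out a mouse, those without TG1, TG3, WT2 or WT3, and without TG5 it was -0.73. The gene shares its place with Cog7 on the other strand. Scnn1g (ENSMUSG00000000216, chr7:121734479-121768475, plus strand) had 4 counts in TG5, 1 in WT3 and 11 in WT5, which is 0.0859, 0.0207 and 0.180 FPKM, and 0 counts in the other 7 mice. At this depth a count of 0 allows up to 3 counts in a mouse, for counting error only, so no difference was detectable. The balance of beta to alpha subunit varied from mouse to mouse. Scnn1b was 14.6 times Scnn1a in TG5 and 0.350 times in TG1, and between 0.838 and 6.10 times in the WT mice.

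The chloride channel was set against the sodium channel by the log2 ratio of Cftr to Scnn1a in each mouse, with 0.1 added to each FPKM. This log2 ratio was 0.85, 3.42, 3.71, 2.40 and 4.25 in TG1 to TG5, and 2.39, 0.14, -3.26, 4.73 and -0.40 in WT1 to WT5. Cftr exceeded Scnn1a in all 5 HSD17B1TG mice and in WT1, WT2 and WT4, whereas in WT3 and WT5 Scnn1a was the higher. The highest ratio of all was that of WT4. The mean was 2.92 ± 1.34 in HSD17B1TG and 0.72 ± 3.02 in WT, a difference of 2.20 (two-sided exact permutation test over the 10 mice, p = 0.183; the smallest p that this design allows is 0.00794). The difference was 3.21 without WT4 (exact permutation p = 0.0317) and 1.21 without WT3. With Scnn1b in place of Scnn1a it was 1.95 (exact permutation p = 0.270).

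**Figure D3:**
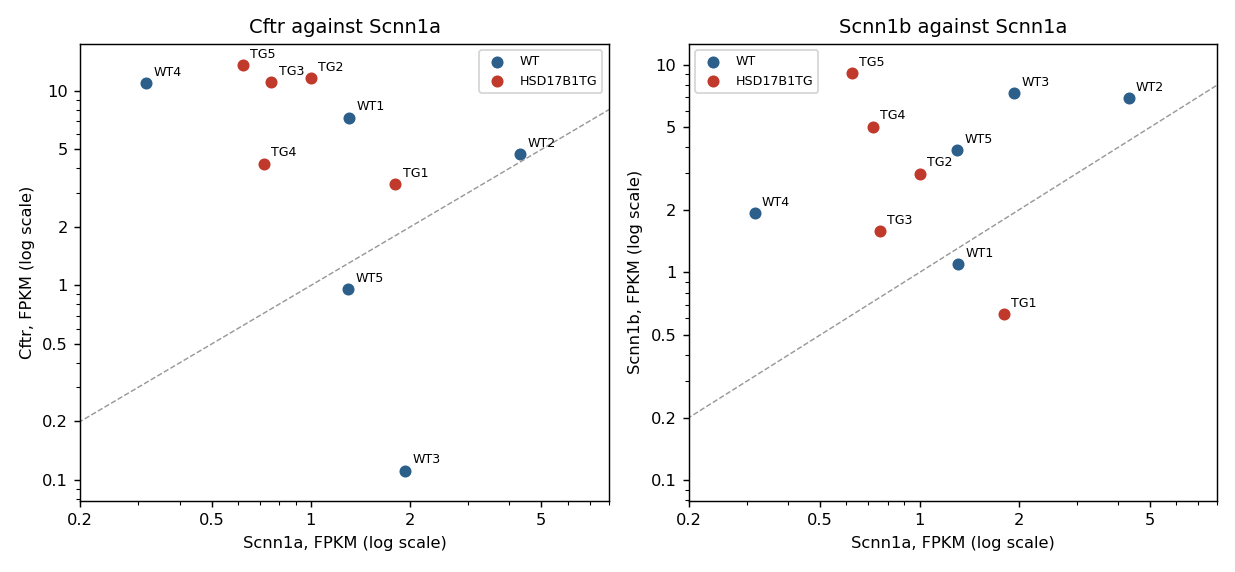
Cftr (left) and Scnn1b (right) against Scnn1a in each mouse, FPKM on log scales, HSD17B1TG in red and WT in blue; the dashed line marks equal levels. All HSD17B1TG mice lie above the line for Cftr, while WT3 and WT5 lie below it and WT4 has the highest ratio.

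Of the exchangers, Slc26a4 had the largest fitted difference among the members, but it did not pass the test. Slc26a4 (ENSMUSG00000020651, chr12:31519827-31559969, minus strand) encodes pendrin, which exchanges chloride for bicarbonate or iodide. Its level was 1.50, 2.88, 2.96, 3.69 and 12.7 FPKM in TG1 to TG5, and 0.170, 0.0508, 0.339, 0.358 and 2.51 in WT1 to WT5. Every HSD17B1TG mouse was above WT1 to WT4, and 4 of the 5 were above all WT mice, since only TG1 lay below WT5. The means were 4.75 ± 4.53 FPKM in HSD17B1TG and 0.686 ± 1.03 in WT (log2 fold change 2.78, SE 0.95, edgeR adjusted p = 0.0977). It was called higher in HSD17B1TG by DESeq2 (adjusted p = 0.0120), by limma on log2(FPKM + 0.1) (adjusted p = 0.0400) and by edgeR without WT5 (log2 fold change 4.34, adjusted p = 0.0481). It was not called by limma voom (log2 fold change 3.45, adjusted p = 0.0544), by limma on log2(FPKM + 1) (1.66, adjusted p = 0.0544) or by edgeR without TG5 (1.996, adjusted p = 0.232). With the epithelium markers as a covariate the log2 difference was 2.87 (unadjusted p = 0.153).

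Slc26a6 (ENSMUSG00000023259, chr9:108853283-108913049, plus strand) encodes another chloride-bicarbonate exchanger of the apical membrane, often coupled to CFTR. It measured 1.83, 1.07, 1.20, 1.26 and 0.511 FPKM in TG1 to TG5, and 1.37, 2.34, 2.17, 1.60 and 2.29 in WT1 to WT5. Of the HSD17B1TG mice 4 lay below all WT mice and TG1 lay among them. The means were 1.18 ± 0.473 FPKM in HSD17B1TG and 1.95 ± 0.441 in WT (log2 fold change -0.74, SE 0.32, unadjusted p = 0.0407, edgeR adjusted p = 0.171). Slc9a3 (ENSMUSG00000036123, chr13:74121457-74169442, plus strand), the apical sodium-proton exchanger NHE3, was near absent from these libraries. It had 2 counts in TG2, 12 in TG5, 1 in WT1, 1 in WT4 and 0 in the other 6 mice.

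Car2 (ENSMUSG00000027562, chr3:14886273-14900770, plus strand), a cytosolic carbonic anhydrase, was by far the most abundant member in both groups. Its level was 128, 312, 618, 570.3 and 1111 FPKM in TG1 to TG5, and 161, 47.4, 24.1, 514 and 182 in WT1 to WT5. The HSD17B1TG mice held the 3 highest values and WT2 and WT3 the 2 lowest, with WT4 among the transgenic mice. The means were 548 ± 372 FPKM in HSD17B1TG and 186 ± 196 in WT (log2 fold change 1.56, SE 0.78, edgeR adjusted p = 0.232). Without WT4 the log2 fold change was 2.40 (adjusted p = 0.0576), and without TG5 it was 1.13. With the epithelium markers as a covariate the log2 difference was -0.085 (unadjusted p = 0.902).

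By mean FPKM the order of the members in WT was Car2, Ano1, Cftr, Scnn1b, Slc26a6, Scnn1a and Slc26a4, and in HSD17B1TG it was Car2, Cftr, Slc26a4, Scnn1b, Ano1, Slc26a6 and Scnn1a. In both groups Scnn1g and Slc9a3 came last. Neighbours in these orders overlapped over the mice of a group, except Car2 with the next gene in both groups and, in HSD17B1TG, Ano1 with Slc26a6 and Scnn1a with Slc9a3. Of the summed mean FPKM of the members without Car2, Ano1 made up 50.5% in WT and 11.1% in HSD17B1TG. Cftr made up 17.6% and 39.8%, and Slc26a4 2.51% and 21.5%, in the same order. A lower Ano1 alone raises every other share, and neither Cftr nor Slc26a4 was called by edgeR. The genes whose log2 CPM over the 10 mice was most like that of Ano1 were Zfp1 (Pearson r = 0.977), 2600014E21Rik (r = 0.975) and Ptch1 (r = 0.973), the receptor for hedgehog ligands. For Cftr they were Mycn (r = 0.960), Pyroxd1 (r = 0.958) and Gm15226 (r = 0.956), and for Car2 Mgat4a (r = 0.973), Creb3 (r = 0.962) and Fam84b (r = 0.962). For Scnn1a they were A230072C01Rik (r = 0.921), Zfp85 (r = 0.909) and Wnt5b (r = 0.909), and for Scnn1b Mthfd2l (r = 0.946), Pip4p2 (r = 0.916) and Lamp2 (r = 0.904). Slc26a4 was most like Gm18001 (r = 0.953), Slfn5 (r = 0.937) and Slc26a11 (r = 0.933), and Slc26a6 most like Rragb (r = 0.973), Pnmal2 (r = 0.973) and Hykk (r = 0.969). These correlations include the difference between the groups, were picked as the highest of 16993 genes, and are descriptions.

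Around the members, 109 further genes of the same transport were listed in 5 groups, of which 93 could be tested. Of these 93, 3 rose (Clca1, Nr3c2 and Spint2) and 1 fell (Hsd11b2), against 2.16% called higher and 2.08% called lower of all genes tested. Nr3c2, Spint2 and Hsd11b2 are regulators of ENaC, of which 19 were tested. In all 4 the groups did not overlap. These 4 were picked by their call, so this cannot be set against the 6.69% of all genes tested. Among the other tested genes of the lists, the groups did not overlap in Slc26a9, Slc4a2, Sgk3 and Car4. Fitted levels were higher in HSD17B1TG for 54 of the 93 genes and lower for 39, with a median log2 fold change of 0.17. An unadjusted p under 0.05 was found for 40.9% of them, against 26.1% of all genes tested.

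Of the 19 regulators of ENaC, all tested, 2 rose and 1 fell, against 2.16% called higher and 2.08% called lower of all genes. An unadjusted p under 0.05 was found for 8 of the 19 (42.1%), against 26.1% of all genes tested. Nr3c2 (chr8:76899442-77245012), the mineralocorticoid receptor through which aldosterone raises ENaC, was between 0.763 and 1.64 FPKM in the HSD17B1TG mice and between 0.153 and 0.528 in the controls. The increase was 1.88 on the log2 scale (SE 0.35, edgeR adjusted p = 0.0227). Hsd11b2 (chr8:105518755-105523988) encodes the enzyme that inactivates corticosterone and so keeps that receptor free for aldosterone. It measured 44.2, 123, 47.8, 7.89 and 21.6 FPKM in TG1 to TG5, and 706, 448, 307, 236 and 455 in WT1 to WT5. The lowest WT mouse, WT4, was still above the highest transgenic mouse, TG2, and the log2 fold change was -3.14 (SE 0.64, edgeR adjusted p = 0.0268). Spint2 (chr7:29256323-29281912), a membrane inhibitor of the serine proteases that activate ENaC, was between 102 and 346 FPKM in HSD17B1TG and between 36.9 and 94.9 in WT (log2 fold change 1.58, SE 0.36, edgeR adjusted p = 0.0345). Sgk3, a kinase related to the aldosterone-induced SGK1, was not called (log2 fold change -0.79, adjusted p = 0.0572). Its groups did not overlap, at 0.907 to 1.25 FPKM in HSD17B1TG and 1.29 to 2.69 in WT, as in 6.69% of all genes tested. Sgk1 itself went the other way, with means of 24.2 FPKM in HSD17B1TG and 12.3 in WT. It was not called either (log2 fold change 0.97, edgeR adjusted p = 0.0780). With the epithelium markers as a covariate all 3 calls were lost, in a fit that called 0 of all 16993 genes. The log2 differences were then 1.78 for Nr3c2 (edgeR adjusted p = 0.233), -3.20 for Hsd11b2 (adjusted p = 0.253) and 0.83 for Spint2 (adjusted p = 0.397). When each mouse was left out in turn, Nr3c2 and Hsd11b2 each kept the call in 5 of 10 fits and Spint2 in 3. The call was lost for Nr3c2 without TG2, TG4, TG5, WT1 or WT2, for Hsd11b2 without TG5, WT1, WT2, WT3 or WT5, and for Spint2 in all but the fits without TG1, TG3 or WT4.

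**Figure D4:**
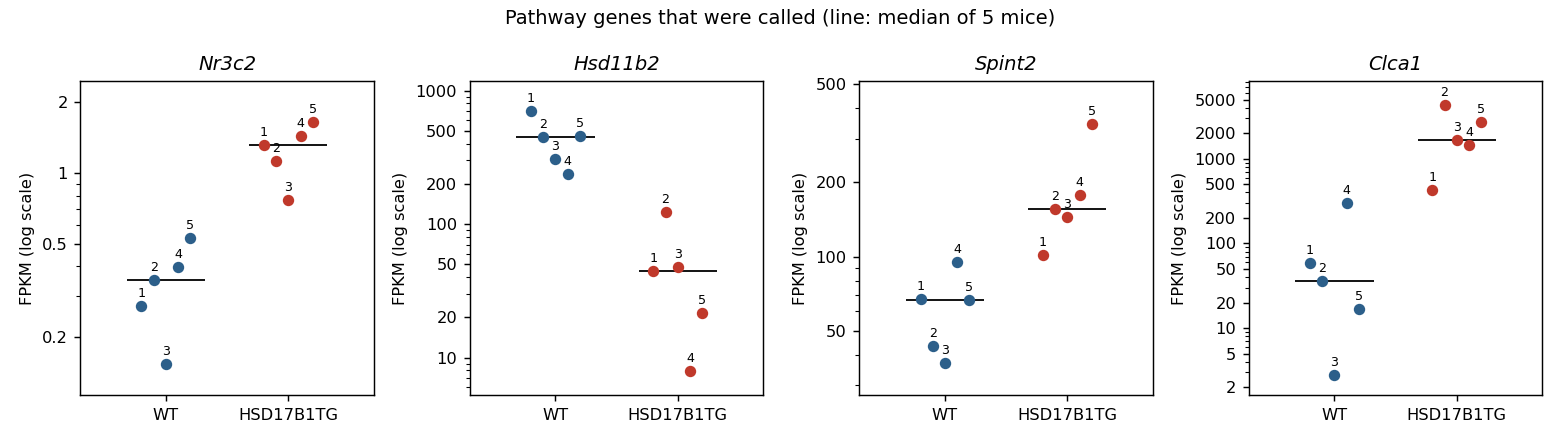
FPKM (log scale) of the 4 called pathway genes in each of the 10 mice, WT in blue and HSD17B1TG in red, with the median as a line. Hsd11b2 is lower in every HSD17B1TG mouse than in any WT mouse, and Nr3c2, Spint2 and Clca1 are higher.

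Of 26 tested genes for other anion channels, exchangers and cotransporters, 1 rose and 0 fell by edgeR, against 2.16% and 2.08% of all genes. An unadjusted p under 0.05 was found for 13 of the 26, against 26.1% of all genes tested. Clca1 (chr3:145003817-145032776), a secreted protein of mucous epithelia that raises calcium-activated chloride current, measured 429, 4299, 1643, 1434 and 2713 FPKM in TG1 to TG5. In WT1 to WT5 it measured 58.1, 36.2, 2.82, 299.6 and 16.7 FPKM. The lowest HSD17B1TG mouse was TG1 and the highest WT mouse WT4, and the groups did not overlap (log2 fold change 4.68, SE 1.15, edgeR adjusted p = 0.0424). The call was kept in 3 of the 10 fits that left out a mouse, those without TG1, TG3 or WT4. It was also lost with the epithelium covariate, a fit that called 0 of all genes (log2 difference 3.03, adjusted p = 0.120). That log2 difference was the lowest of a range that reached 6.21 over the alternatives. Reads may be shared among the similar Clca genes. Clca3a2 (log2 fold change 3.28, adjusted p = 0.0548), the chloride transporter gene Slc26a9 (2.87, adjusted p = 0.0652) and the anion exchanger gene Slc4a2 (0.49, adjusted p = 0.0531) were not called by edgeR. Slc26a9 was between 5.96 and 20.4 FPKM in HSD17B1TG and between 0.0356 and 2.63 in WT. Slc4a2 was between 11.8 and 15.2 FPKM in HSD17B1TG and between 8.03 and 11.6 in WT. Neither gene overlapped between the groups, as was so for 6.69% of all genes tested.

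Of 19 tested genes for other sodium entry, sodium-proton exchange and the sodium pump, 0 were called by edgeR. An unadjusted p under 0.05 was found for 6 of the 19 (31.6%), against 26.1% of all genes tested. Slc5a1, the sodium-glucose cotransporter SGLT1, had a log2 fold change of 2.56 (adjusted p = 0.0511), and Atp1b1, the beta subunit of the sodium pump, one of -1.91 (adjusted p = 0.0668).

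Among the partners of CFTR, 0 of 18 tested genes were called by edgeR. An unadjusted p under 0.05 was found for 6 of the 18 (33.3%), against 26.1% of all genes tested. The scaffold genes Slc9a3r1 (NHERF1) and Slc9a3r2 (NHERF2), which tie CFTR to the cytoskeleton, had log2 fold changes of opposite sign, 1.07 (adjusted p = 0.0635) and -0.73 (adjusted p = 0.0927). Ezr, which encodes the linker ezrin, had 1.23 (adjusted p = 0.111), and the adenylyl cyclase gene Adcy6 had 0.67 (adjusted p = 0.0641).

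Of 11 other carbonic anhydrase genes tested, 0 were called by edgeR. An unadjusted p under 0.05 was found for 5 of the 11 (45.5%), against 26.1% of all genes tested. Car4, an anhydrase anchored to the outer membrane, had 0 counts in all 5 HSD17B1TG mice, and 0.269, 0.535, 1.04, 1.45 and 19.6 FPKM in WT1 to WT5. Against 3 counts over the whole HSD17B1TG group, the pooled WT level was at least 294-fold higher, or 50.6-fold without WT5. Of the 913 WT counts, 788 were from WT5. These bounds allow for counting error only, not for spread between mice. Car4 was not called (edgeR adjusted p = 0.0517 over all mice). The membrane-bound Car12 had a log2 fold change of 2.16 (adjusted p = 0.124) and Car9 one of 1.16 (adjusted p = 0.149), while Car8, a relative that lacks enzyme activity, had -2.62 (adjusted p = 0.128).

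**Figure D5:**
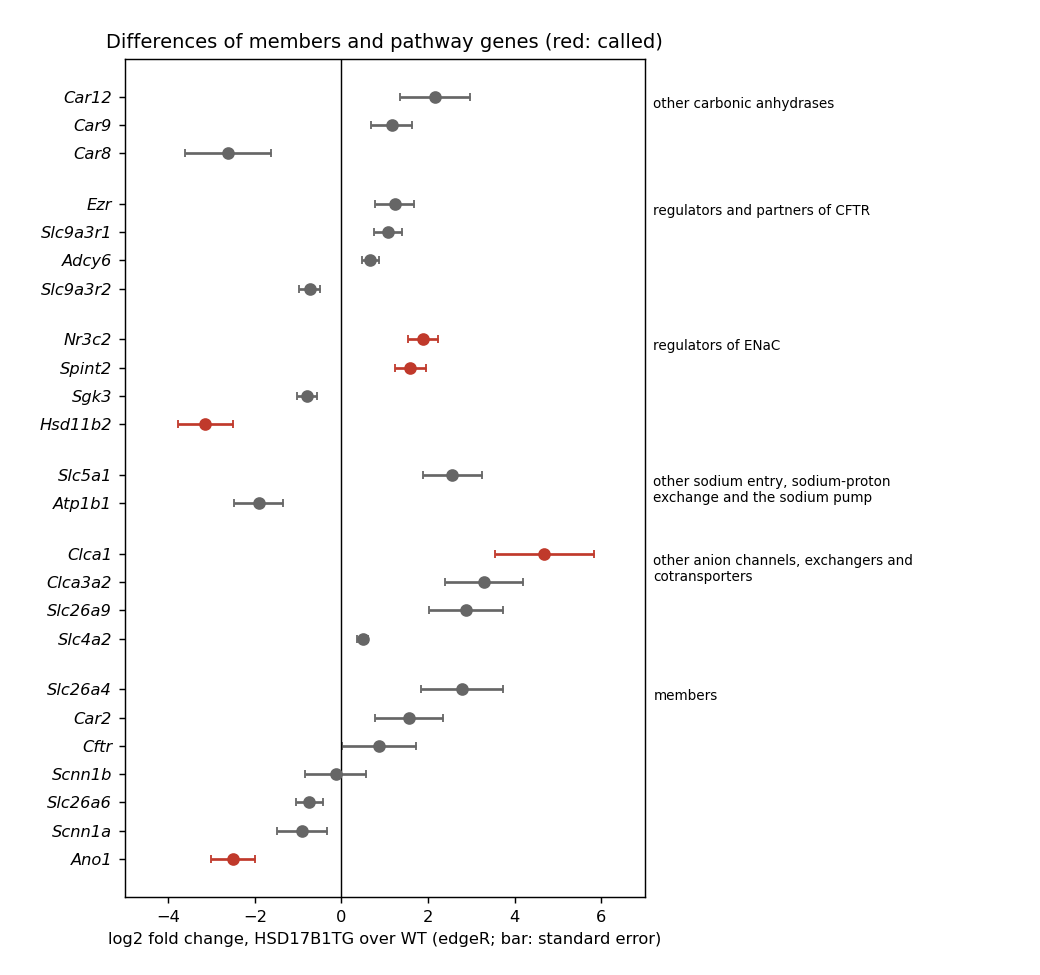
Log2 fold change of HSD17B1TG over WT with its standard error (edgeR, 5 mice a group) for the 7 tested members and 17 named pathway genes, by list, with called genes in red. Ano1 and Hsd11b2 were called lower and Clca1, Nr3c2 and Spint2 higher; Car4 is left out because it had 0 counts in one group.

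Markers of the other tissues of the uterus were summed in the same way. Stroma markers, summed over 6 genes, ran from 507 to 1929 FPKM in HSD17B1TG and from 1615 to 2014 in WT, and 2 of the 6 were called lower. Markers of glandular epithelium (4 genes) ran from 0.838 to 5.94 FPKM and from 1.94 to 44.5, and those of luminal epithelium (3 genes) from 4.52 to 25.9 and from 3.76 to 45.0. Markers of squamous epithelium (6 genes) ran from 1.79 to 40.6 FPKM and from 1.57 to 5.15, and 1 of them was called higher. Endothelium (5 genes) ran from 16.8 to 63.4 and from 38.5 to 94.8 FPKM, leucocytes (5 genes) from 43.2 to 72.9 and from 36.8 to 70.6, erythroid cells (4 genes) from 22.7 to 106 and from 32.3 to 157, and oviduct (5 genes) from 3.90 to 8.27 and from 3.50 to 8.79. Of the 5 leucocyte markers 1 was called higher, and the other 4 had lower fitted levels, 3 of them at an unadjusted p under 0.05. For luminal epithelium, glandular epithelium, smooth muscle, endothelium, erythroid cells and oviduct 0 markers were called by edgeR; of these, 1 glandular and 2 endothelium markers had an unadjusted p under 0.05. Each marker measured had more than 3 counts in at least 1 mouse. The part of these tissues in the differences above was not tested. The epithelium covariate does not separate it from genotype, since all 10 epithelium markers had higher fitted levels in HSD17B1TG uteri.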

How the data were processed

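Uteri were snap-frozen and RNA was isolated, and the mRNA was sequenced as read pairs of 150 bases. Per the study's methods, the authors aligned reads with HISAT2 (version 2.0.5 in the submitters' processing notes) to GRCm38 with Ensembl release 94 and used DESeq2. The deposited table holds raw gene counts, size-factor normalised values (deposited as a signal per gene) and FPKM made by the authors. Which program counted the reads, and whether by strand, is not given in the sources used here. The authors' fold changes and p-values in the table were not used.

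Counts were tested with edgeR 4.0.16 (TMM factors, filterByExpr, glmQLFit and glmQLFTest at default settings) in R 4.3.3, HSD17B1TG against WT without covariates. The SE is the absolute log2 fold change divided by the root of the F statistic. On simulated counts with 200 changed genes 153 of 16604 passed an adjusted p of 0.05, 148 of them changed genes, and with 0 changed genes 0 of 16604 did. Alternatives used limma 3.58.1, DESeq2 1.42.0, other scalings and filters, the mean log2 CPM of the epithelium markers as a covariate, and each mouse left out in turn. The exact permutation test was written in Python 3.11.15 with numpy 2.4.6. Log2 CPM had a prior count of 2.

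The members and gene lists were chosen with earlier results of these data known. Named genes are all 10 members, the called genes of each of the 5 pathway lists filled up to 4 by smallest p, and for each tested member the 3 genes of highest Pearson r. Of these, 2 pathway genes are not reported here. Promoters are RefSeq's, and 8 of the 10 members had one. Gene coordinates are those of the table. The mice are separate animals, and n counts mice.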

Additional observations from a re-analysis of the deposited data

Results flagged for a closer look

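Of 57 groups of 5 mice examined over the members and named pathway genes, 12 held 1 mouse far from the other 4. Chance gives this in about 1 in 20 groups of normally distributed values, but FPKM is skewed and most Scnn1g and Slc9a3 values were 0, so the number of such groups was not compared with chance. TG5 stood above the other HSD17B1TG mice for Slc26a4 (12.7 FPKM, others 1.50 to 3.69), for Scnn1g (0.0859 FPKM, others 0) and for Slc9a3 (0.140 FPKM, others 0 to 0.0209). The values for Scnn1g and Slc9a3 rest on 4 and 12 counts. TG2 was the high mouse for Ano1 (3.60 FPKM, others 2.02 to 2.35) and for Slc26a9 (20.4 FPKM, others 5.96 to 10.1).

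Among the WT mice, WT4 stood above the rest for Clca1 (299.6 FPKM, others 2.82 to 58.1), Slc5a1 (4.14 FPKM, others 0.212 to 1.30) and Car9 (7.73 FPKM, others 1.02 to 2.75). WT5 did so for Slc26a4 (2.51 FPKM, others 0.0508 to 0.358), Car4 (19.6 FPKM, others 0.269 to 1.45) and Scnn1g (0.180 FPKM, others 0 to 0.0207). WT3 had 97.5 FPKM of Atp1b1 against 9.57 to 23.3 in the other WT mice.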

How the results depend on the processing

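Of the members, 1 was called in the reported fit, 2 by DESeq2, 2 by limma on log2(FPKM + 0.1), 0 by limma voom (4 at an unadjusted p under 0.05) and 0 with the epithelium covariate (0 at that p). Pathway genes called were 4 as reported, 15 by DESeq2, 8 by limma voom, 7 and 8 by limma on log2(FPKM + 1) and log2(FPKM + 0.1), and 0 with the covariate (15 at an unadjusted p under 0.05). Over all genes 721 were called as reported, 1572 by DESeq2 and 0 with the covariate (1973 at an unadjusted p under 0.05). With each mouse left out in turn, the counts ran from 0 to 1 members, 0 to 17 pathway genes and 65 to 1554 of all genes. They were highest without WT4 (17 and 1554) and without TG1 (14 and 1338), and lowest for all genes without TG5 (65). The difference between the groups in the log2 Cftr to Scnn1a ratio ran from 1.21 to 3.21 over these, and passed an unadjusted p of 0.05 only without WT4 (3.21). Under the covariate the sign turned for Cftr (-0.61) and Car2 (-0.085), and for Scnn1b it turned without TG1 (0.14), TG3 (0.045), WT2 (0.091) or WT3 (0.13), the range over all mice left out being -0.73 to 0.14. The log2 fold change of Ano1 was negative in all 19 alternatives (-2.77 to -1.41) and called in 11, with adjusted p from 2.9e-05 to 0.464. The causes of these changes were not tested. Upper-quartile scaling called 312 genes higher and 404 lower, against 367 and 354. Depth limited Scnn1g and Slc9a3, which had at most 12 counts in a mouse. No paired analysis was possible because the labels give no shared replicate numbers.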
